A study of Mus musculus with 16 samples.

Results

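The inhibitory transmitter genes of the spinal cord were described as a list of 9 genes that make, package, clear or receive GABA and glycine. They were *Gad1*, *Gad2*, *Slc32a1*, *Slc6a5*, *Slc6a11*, *Slc6a9*, *Glra1*, *Glrb* and *Gphn*. Members were found by symbol, and 9 of 9 were present among the 18167 genes of the deposited expression table. Spinal cord RNA of 16 transgenic mice, labelled as male, was compared in 4 groups. Mutant mice carried human profilin 1 with the G118V mutation (line 838Kiaei, on C57BL/6N). Control mice carried wild-type human profilin 1 (line 850Kiaei, also on C57BL/6N). In both strains the transgene was inserted in the MoPrP.Xho vector and was driven by the mouse prion promoter, which is active in many cell types. Mice without a transgene were not among these samples. Mutant young (MY, n = 3) and wild-type young (WY, n = 3) mice were 50 days old, before symptoms. Mutant old mice (MO, n = 5) were 175 to 245 days old and at the end stage of disease, when a mouse could no longer right itself in the time allowed. Wild-type old mice (WO, n = 5) were 190 to 294 days old. The 6 young mice and 3 mice of each old group came from library batch 1, and the other 2 mice of each old group from batch 2. In batch 2, WO4 and WO5 were 294 days old, MO4 was 224 and MO5 was 175. Differences between MO and WO within batch 2 therefore also hold a difference in age.

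Spinal interneurons inhibit motor neurons and each other by releasing GABA, glycine or both. Glutamate decarboxylases make GABA from glutamate, and a vesicular transporter shared by GABA and glycine loads the transmitter into synaptic vesicles. After release, plasma membrane transporters on neurons and astrocytes take it up again. On the receiving cell, glycine and GABA open chloride channels that a scaffold protein holds at the synapse. In the ventral horn, glycine released by Renshaw cells and other interneurons restrains the firing of motor neurons.

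Each value was log2(1 + FPKM), in which FPKM is the number of fragments per kilobase of transcript, scaled to the size of the library, as deposited after the authors' adjustment for batch. The table held no read counts, so the number of reads behind each gene's value is unknown, although the authors state the size of each library. A change is given as the difference of group means on this scale, the second group of a comparison minus the first, so that MY vs. MO is MO minus MY. It understates the change of FPKM itself where a gene is low. The study's thresholds were a false discovery rate (FDR) of 0.05 and a fold change of 1.5. A gene past both is said to be called, and the count at FDR 0.05 alone is given beside it. All p-values measured the spread between mice.

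Several libraries stood apart before any group was compared. The library labelled MO5 was labelled male, yet its *Xist* level was 3.21 where no other mouse exceeded 0.37, and its *Ddx3y* level was 1.95 where no other was below 4.06. In WY1, *Slc6a5* and *Glra1* lay far from those of the other mice of its group, with *Slc6a5* at 4.02 against a mean of 5.86 in WY2 and WY3 and *Glra1* at 3.52 against 5.52. Of the 13530 genes with a mean level of at least 1, 0.148% and 0.118% lay further below the mean of WY2 and WY3 in WY1 than *Slc6a5* and *Glra1* did. *Gad2* lay lower there by 0.53, while *Gad1* did not differ (0.00). The level of *Mbp*, a myelin gene, was 5.36 in WO4 and between 12.2 and 14.2 in the other mice. In MO1 the blood markers *Hba-a1* and *Alas2* were at 3.60 and 0.67, against 5.42 to 6.56 and 1.34 to 2.06 in the other mice. Long and short transcripts also shifted against each other between libraries. The median deviation of 4339 genes with the longest transcripts minus that of 4341 with the shortest was -0.18 in WY1, -0.15 in MO2, -0.09 in MO3 and -0.19 in MO4, -0.07 in WO1 and -0.05 in MO5, and between -0.01 and 0.11 in the other 10 mice. Several results that rest on WY1 or MO5 are given with and without them, but the within-mouse differences are given with all mice only.

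The tissue label was compared with marker genes. The mean level of the 7 motor neuron markers, which include the acetylcholine synthase *Chat*, was 2.27 to 2.92 in the 16 mice. That of 5 measured sensory ganglion markers was 0.21 to 0.32, that of 4 Schwann cell markers 0.33 to 0.57, and that of 5 skeletal muscle markers 0.12 to 0.43. That of 4 measured cerebellum and forebrain markers was 0.76 to 1.00. The markers *Pmp2* and *Prx* of Schwann cells, *Avil*, *Prdm12*, *Scn10a* and *Trpv1* of sensory ganglia, *Cbln3* and *Emx1* of brain and *Ckm*, *Myh1*, *Myh4* and *Tnnt3* of muscle each had a mean under 0.5. Low levels remained for *Ncmap* of Schwann cells (1.33), *P2rx3* of sensory ganglia (0.86), *Neurod6* and *Pcp2* of brain (1.55 each) and *Acta1* of muscle (0.59).

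The members were well expressed in every group. Over the 16 mice *Glrb* had the highest mean, 7.15, followed by *Slc6a11* (6.98), *Slc6a9* (6.59), *Gad1* (6.13), *Slc32a1* (6.05), *Slc6a5* (5.44), *Glra1* (5.06), *Gphn* (4.86) and *Gad2* (4.60). These means lay between the 79.4th percentile (*Gad2*) and the 97.1st percentile (*Glrb*) of all genes. FPKM corrects for gene length, but the gene annotation behind it was not given, so the order across genes is approximate. In MY, the neighbours *Gad1* and *Slc32a1*, and *Slc6a5* and *Glra1*, overlapped between mice, and the other neighbours in the order did not. In WY, which includes WY1, all neighbours overlapped except *Slc6a9* and *Gad1*. In WO, *Glrb* and *Slc6a11*, *Slc32a1* and *Gad1*, *Slc6a5* and *Glra1*, and *Glra1* and *Gphn* overlapped. In MO, *Glra1* stood below *Gphn* and next to *Gad2*, at 4.58 against 4.75 and 4.52, with overlapping ranges, and *Glrb* and *Slc6a11*, *Slc6a9* and *Gad1*, and *Slc6a5* and *Gphn* overlapped as well.

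**Figure D1:**
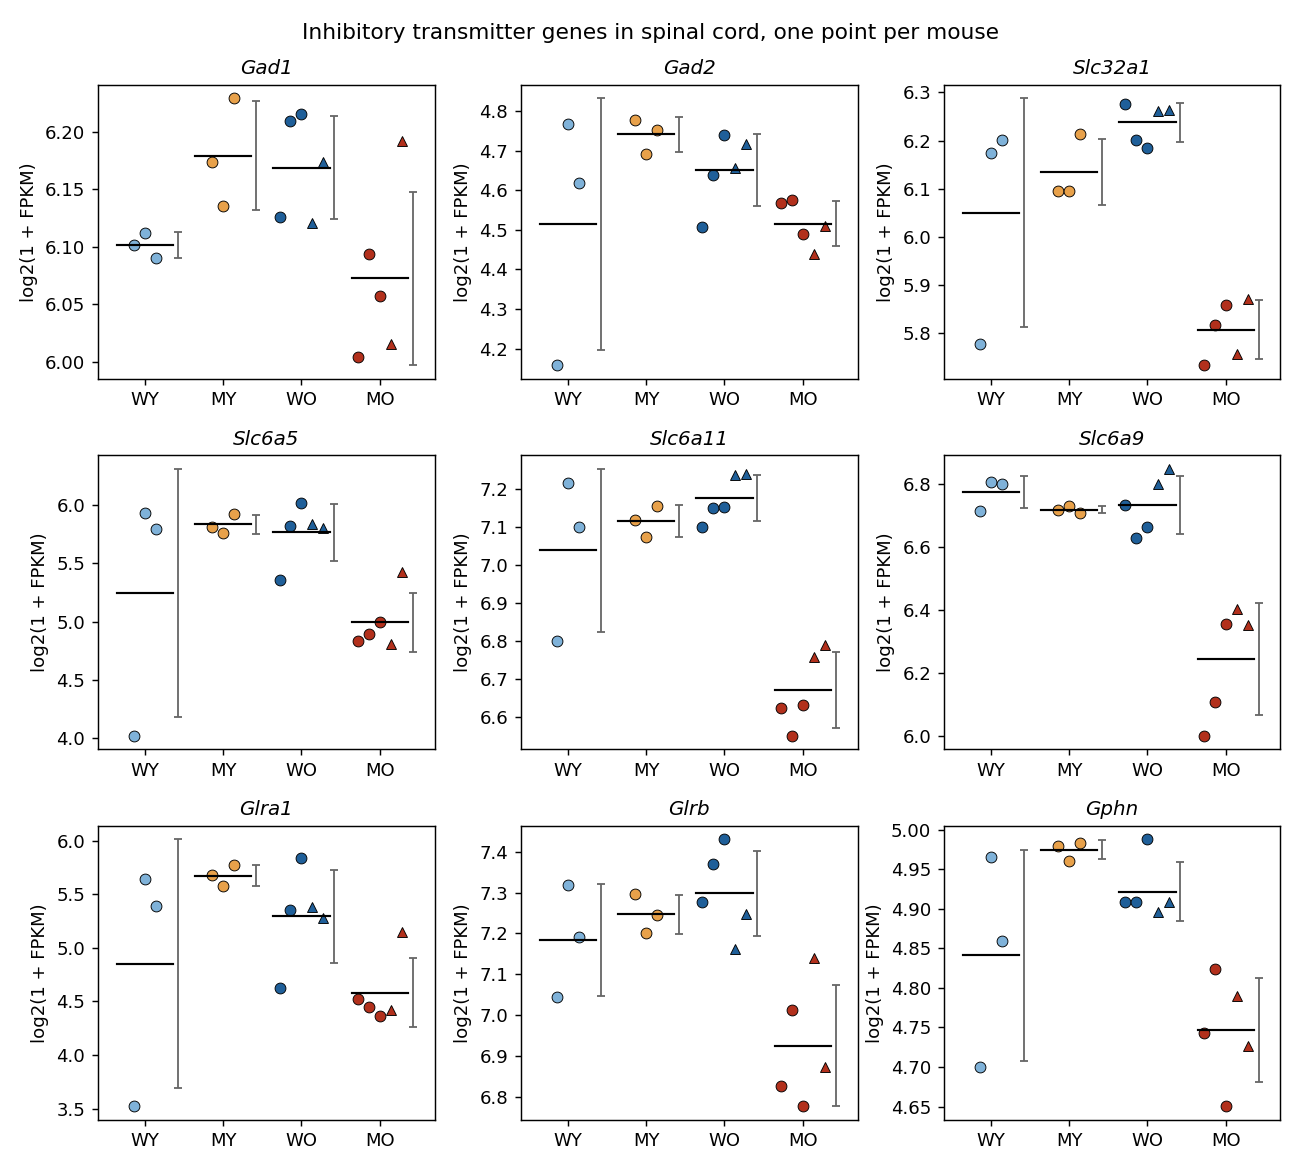
Level of each of the 9 inhibitory transmitter genes, in log2(1 + FPKM), in every mouse of the 4 groups. Circles are mice of batch 1 and triangles mice of batch 2, horizontal lines are group means, and grey bars are 1 SD on each side of the mean; WY1 is the low point of WY for *Slc6a5* (4.02) and *Glra1* (3.52).

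All 9 members had a lower mean in MO than in MY and than in WO. In MY vs. MO, 8 members passed FDR 0.05, all lower in MO, where 25.6% of all genes passed, 12.5% lower and 13.1% higher. Of these, *Slc6a5* and *Glra1* also passed the fold change threshold and were called, where 4.9% of all genes were, 0.787% lower and 4.11% higher. At an unadjusted p under 0.05 there were 8 members, against 36.7% of all genes. For WO vs. MO, 7 members passed FDR 0.05 as lower, where 27.9% of all genes passed, 12.9% lower and 15% higher. *Slc6a5* and *Glra1* were called again, against 4.6% of all genes, 0.517% lower and 4.08% higher, and 9 members had an unadjusted p under 0.05, against 38.5%. Groups did not overlap, MO being lower, for 8 members in MY vs. MO (15.9% of all genes, and 15.7% with MO higher) and for 5 members in WO vs. MO (8.65%, and 11.3% with MO higher). Both comparisons used the same 5 MO mice, so they are not independent. In bulk tissue, fewer inhibitory neurons and less RNA per neuron cannot be told apart.

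**Figure D2:**
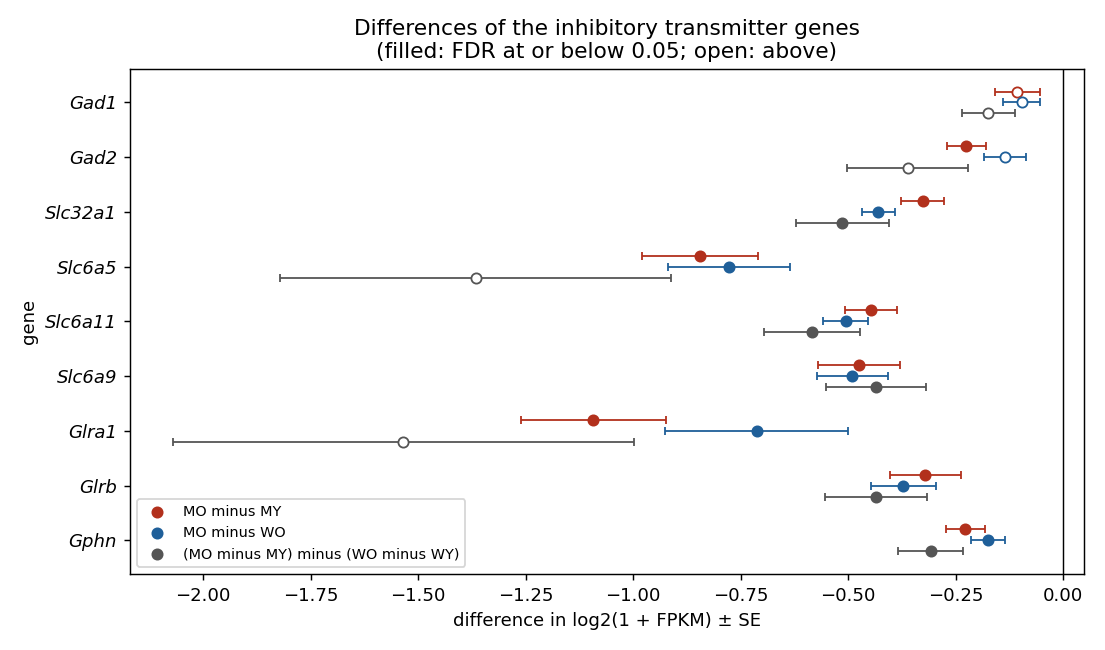
Difference in log2(1 + FPKM) with its SE for each member in MY vs. MO (red), WO vs. MO (blue) and for the difference between the mutant and the wild-type age effects (grey). Filled points had an FDR at or below 0.05, and every point lies below 0, from -0.10 for *Gad1* in WO vs. MO to -1.53 for *Glra1* in grey.

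GABA synthesis depends on both decarboxylases. *Gad1* encodes GAD67, the decarboxylase that makes most GABA in the cell body and axon. Its level was 6.17, 6.14 and 6.23 in MY1 to MY3, 6.13, 6.21, 6.22, 6.12 and 6.17 in WO1 to WO5, and 6.00, 6.09, 6.06, 6.02 and 6.19 in MO1 to MO5. MO5 lay inside the range of both other groups, so the groups overlapped. The difference was -0.11 (SE 0.05, FDR = 0.175) in MY vs. MO and -0.10 (SE 0.04, FDR = 0.124) in WO vs. MO. Without MO5 the latter was -0.13 and passed (FDR = 0.0359).

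*Gad2* encodes GAD65, the form of the enzyme found at nerve terminals. It was 4.78, 4.69 and 4.75 in MY1 to MY3, 4.51, 4.64, 4.74, 4.66 and 4.72 in WO1 to WO5, and 4.57, 4.58, 4.49, 4.44 and 4.51 in MO1 to MO5. Every MO mouse lay below every MY mouse, while WO1 lay among the MO mice. *Gad2* fell by 0.23 in MY vs. MO (SE 0.04, FDR = 0.00791), which did not pass in a single fit of all 4 groups (FDR = 0.117) or with the replicate number as a block (-0.20, FDR = 0.0699). The blocked estimate is that of the batch 1 mice alone, for which the decrease passed without the block (-0.20, FDR = 0.0277). In WO vs. MO its difference of -0.14 (SE 0.05, FDR = 0.0644) missed the threshold, and it passed without WO1 at -0.17 (FDR = 0.0140). Within batch 1, MO minus WO was -0.08 with overlap, and within batch 2 it was -0.21 without.

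Vesicular loading depends on VGAT, the transporter encoded by *Slc32a1*, which carries both GABA and glycine. Its level was 6.10, 6.09 and 6.21 in MY1 to MY3, 6.28, 6.20, 6.19, 6.26 and 6.26 in WO1 to WO5, and 5.73, 5.82, 5.86, 5.76 and 5.87 in MO1 to MO5. All MO mice lay below all MY and WO mice, by at least the distance from 5.87 to 6.09. *Slc32a1* fell by 0.33 in MY vs. MO (SE 0.05, FDR = 0.00235) and by 0.43 in WO vs. MO (SE 0.04, FDR = 3.44e-05), or 1.25-fold and 1.35-fold on the 1 + FPKM scale. MO minus WO was -0.42 in batch 1 and -0.45 in batch 2.

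*Slc32a1* was also set against *Gad1* within each mouse, a pair formed because the first fell and the second did not pass, so the p below restates that observation. *Gad1* minus *Slc32a1* was 0.27, 0.28, 0.20, 0.26 and 0.32 in MO1 to MO5, -0.15, 0.01, 0.03, -0.14 and -0.09 in WO1 to WO5, and 0.08, 0.04 and 0.02 in MY1 to MY3. The MO mice lay above all WO and MY mice. The 2-sided exact permutation p was 0.00794 for WO vs. MO, the smallest that 5 against 5 mice allow, and 0.0357 for MY vs. MO, the smallest for 3 against 5. This was 1 of 9 within-mouse differences, chosen after the values were seen and tested in both comparisons, and over these 18 tests the adjusted p was 0.0643 for each. In WY1 the difference was 0.32, as high as in MO, against -0.06 and -0.11 in WY2 and WY3.

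Glycine is taken back into inhibitory terminals by GlyT2, encoded by *Slc6a5*, a marker of glycinergic neurons. Its level was 5.81, 5.77 and 5.93 in MY1 to MY3, 5.36, 5.83, 6.02, 5.84 and 5.81 in WO1 to WO5, and 4.84, 4.90, 5.00, 4.81 and 5.43 in MO1 to MO5. MO5 was the highest of MO and lay just above WO1, the lowest of WO, and no MO mouse reached MY. *Slc6a5* fell by 0.84 in MY vs. MO (SE 0.13, FDR = 0.00298) and by 0.78 in WO vs. MO (SE 0.14, FDR = 0.00224), which is 1.79-fold and 1.71-fold on the 1 + FPKM scale. FPKM at the group means was 56.1 in MY, 53.6 in WO and 30.8 in MO. Without MO5 the decreases were larger, at -0.95 and -0.89. MO minus WO was -0.82 in batch 1 and -0.71 in batch 2, without overlap in either. In a single fit of all 4 groups, whose spread includes WY1, the MY vs. MO call was lost (FDR = 0.0707).

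The level of *Slc6a5* was also set against that of *Slc17a6*, the vesicular glutamate transporter of most spinal excitatory neurons. *Slc6a5* minus *Slc17a6* was -0.87, -0.80, -0.56, -0.95 and -0.29 in MO1 to MO5, and -0.40, -0.11, 0.00, -0.04 and -0.10 in WO1 to WO5. Group means were -0.69 and -0.13, and MO5 lay above WO1, so the ranges overlapped. In WY1 to WY3 the difference was -1.57, -0.11 and -0.13, so WY1 lay below every MO mouse. The 2-sided exact permutation p was 0.0159 in WO vs. MO (adjusted p = 0.0643), and it was 0.0357 in MY vs. MO, where the ranges did not overlap. For *Slc32a1* minus *Slc17a6* the means were 0.12 in MO and 0.34 in WO, also with overlap (exact permutation p = 0.0317, adjusted p = 0.0643), whereas in MY vs. MO they were 0.15 in MY and 0.12 in MO (exact permutation p = 0.643).

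*Slc6a9* encodes GlyT1, the glycine transporter that is mainly on astrocytes. Its level was 6.72, 6.73 and 6.71 in MY1 to MY3, 6.73, 6.63, 6.66, 6.80 and 6.85 in WO1 to WO5, and 6.00, 6.11, 6.36, 6.40 and 6.35 in MO1 to MO5. MO spread wider than the other groups, and its highest mouse stayed below the lowest of MY and WO. *Slc6a9* fell by 0.47 in MY vs. MO (SE 0.09, FDR = 0.00792) and by 0.49 in WO vs. MO (SE 0.08, FDR = 0.00142). MO minus WO was -0.52 in batch 1 and -0.45 in batch 2.

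GAT3, the GABA transporter of astrocytes encoded by *Slc6a11*, followed. Its level was 7.12, 7.07 and 7.16 in MY1 to MY3, 7.10, 7.15, 7.15, 7.24 and 7.24 in WO1 to WO5, and 6.62, 6.55, 6.63, 6.76 and 6.79 in MO1 to MO5. The MO mice formed a separate lower range. *Slc6a11* fell by 0.45 in MY vs. MO (SE 0.06, FDR = 0.00147) and by 0.51 in WO vs. MO (SE 0.05, FDR = 7.56e-05). MO minus WO was -0.53 in batch 1 and -0.46 in batch 2, without overlap in either.

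The glycine receptor of the adult spinal cord is built from alpha 1 subunits, encoded by *Glra1*, and beta subunits, encoded by *Glrb*. The level of *Glra1* was 5.68, 5.58 and 5.77 in MY1 to MY3, 4.62, 5.36, 5.84, 5.38 and 5.28 in WO1 to WO5, and 4.53, 4.45, 4.37, 4.42 and 5.15 in MO1 to MO5. MO5 stood above the other MO mice, WO1 stood below the other WO mice, and the ranges of MO and WO therefore overlapped, while those of MO and MY did not. *Glra1* fell by 1.09 in MY vs. MO (SE 0.17, FDR = 0.00251), the largest decrease among the members, or 2.13-fold on the 1 + FPKM scale. In WO vs. MO it fell by 0.71 (SE 0.21, FDR = 0.0300), or 1.64-fold. That second call was lost without any of MO1, MO2, MO3, MO4, WO2, WO3, WO4 or WO5 (FDR between 0.0528 and 0.0695). It was kept without MO5, at -0.86 (FDR = 0.0104), and without both WO1 and MO5, at -1.02 (FDR = 0.000658). It was also lost in batch 1 alone (-0.82, FDR = 0.104), in a single fit of all 4 groups (FDR = 0.121) and with the replicate number as a block (FDR = 0.0517). MO minus WO was -0.55 in batch 2.

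*Glrb* was 7.30, 7.20 and 7.24 in MY1 to MY3, 7.28, 7.37, 7.43, 7.16 and 7.25 in WO1 to WO5, and 6.83, 7.01, 6.78, 7.14 and 6.87 in MO1 to MO5. MO4, at 7.14, was just below WO4, at 7.16, and the groups did not overlap. *Glrb* fell by 0.32 in MY vs. MO (SE 0.08, FDR = 0.0226) and by 0.37 in WO vs. MO (SE 0.08, FDR = 0.00424). The former was lost without any single MY mouse (FDR between 0.0553 and 0.0928). MO minus WO was -0.49 in batch 1 and -0.20 in batch 2.

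The receptor subunits were also compared within each mouse. *Glra1* minus *Glrb* was -1.62, -1.63 and -1.47 in MY1 to MY3 and -2.30, -2.56, -2.41, -2.72 and -1.72 in MO1 to MO5, without overlap (2-sided exact permutation p = 0.0357, adjusted p = 0.0643). In WO it was -2.66, -2.01, -1.59, -1.78 and -1.97, overlapping with MO (exact permutation p = 0.190). It was -3.52, -1.67 and -1.80 in WY1 to WY3, so WY1 lay below every MO mouse.

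Gephyrin, encoded by *Gphn*, is the scaffold that anchors glycine receptors and many GABA-A receptors at the synapse, and *Glrb* is the subunit it binds. Its level was 4.98, 4.96 and 4.98 in MY1 to MY3, 4.91, 4.91, 4.99, 4.90 and 4.91 in WO1 to WO5, and 4.74, 4.82, 4.65, 4.79 and 4.73 in MO1 to MO5. The ranges did not overlap, but the distance was small. *Gphn* fell by 0.23 in MY vs. MO (SE 0.05, FDR = 0.00792) and by 0.18 in WO vs. MO (SE 0.04, FDR = 0.00730). The former did not pass with the replicate number as a block (-0.24, FDR = 0.0557), nor the latter in batch 1 alone (-0.20, FDR = 0.0929). In batch 1 alone without the block, MY vs. MO passed (-0.24, FDR = 0.0236).

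These decreases were then read against neurons as a whole. Of the 12 pan-neuronal genes, 8 fell in MY vs. MO and 9 in WO vs. MO, and none rose, with medians of -0.23 and -0.25 against -0.33 and -0.43 for the members. The median over all genes was 0.00 in each. When each mouse was centred on the mean of its 12 pan-neuronal genes, the median of all genes moved to 0.21 in MY vs. MO and 0.22 in WO vs. MO. On this scale 61.8% of all genes passed FDR 0.05 in MY vs. MO, 2.9% lower and 58.9% higher, and 66.6% in WO vs. MO, 2.08% lower and 64.6% higher. Of the members 4 passed in each, all lower, a smaller share than that of all genes in either direction and a larger one than that of genes that were lower. In MY vs. MO these were *Slc6a5* at -0.64 (FDR = 0.00387), *Slc6a11* at -0.24, *Slc6a9* at -0.27 and *Glra1* at -0.89 (FDR = 0.00217). For WO vs. MO they were *Slc32a1* at -0.21 (FDR = 0.00248), *Slc6a5* at -0.56 (FDR = 0.00588), *Slc6a11* at -0.29 and *Slc6a9* at -0.27. On this scale *Gad1* turned to 0.10 in MY vs. MO and 0.12 in WO vs. MO, and *Gad2* to 0.08 and *Gphn* to 0.04 in WO vs. MO. *Slc6a5*, *Slc6a11* and *Slc6a9* thus passed on this scale in both comparisons. *Glra1* missed in WO vs. MO (-0.49, FDR = 0.0584) and *Slc32a1* in MY vs. MO (-0.12, FDR = 0.0859), and *Gad2*, *Glrb* and *Gphn* passed in neither. For *Slc6a11* and *Slc6a9*, transporters of astrocytes, this scale gives no reference to their own cells. Centring on astrocyte genes was not tested.

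The shift between long and short transcripts was also taken out, by removing from each mouse its trend over transcript length. *Slc6a5* was then -0.73 in MY vs. MO (FDR = 0.00339) and -0.70 in WO vs. MO (FDR = 0.00162), and *Glra1* was -1.12 (FDR = 0.00174) and -0.73 (FDR = 0.0230). *Gad2* in MY vs. MO shrank from -0.23 to -0.14 (FDR = 0.0448), and in WO vs. MO from -0.14 to -0.07 (FDR = 0.236).

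The young groups ask whether the genes differed before symptoms. The members in WY1, WY2 and WY3 were 6.10, 6.11 and 6.09 for *Gad1*, 4.16, 4.77 and 4.62 for *Gad2*, and 5.78, 6.17 and 6.20 for *Slc32a1*. They were 4.02, 5.93 and 5.79 for *Slc6a5*, 6.80, 7.22 and 7.10 for *Slc6a11*, and 6.72, 6.81 and 6.80 for *Slc6a9*. For the receptor they were 3.52, 5.65 and 5.39 for *Glra1*, 7.04, 7.32 and 7.19 for *Glrb*, and 4.70, 4.96 and 4.86 for *Gphn*. WY1 was the lowest of all 16 mice for *Gad2*, *Slc6a5* and *Glra1*, and WY2 and WY3 lay among the MY and WO mice for most genes.

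In WY vs. MY, limma called 0 of 9 members, and 0 had an unadjusted p under 0.05, where 0.0055% of all genes were called, 1 gene that was higher, and 7.16% had such a p. The largest differences were 0.82 for *Glra1* (SE 0.54) and 0.59 for *Slc6a5* (SE 0.49). Without WY1 these were 0.16 (SE 0.09) and -0.03 (SE 0.07), so WY1 decided their size. *Gad1* was the member whose groups did not overlap, higher in MY by 0.08 (SE 0.04), as were 6.15% of all genes, while 7.52% were lower without overlap.

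In WY vs. WO, the effect of age in wild-type mice, limma also called 0 of 9 members, where 0.253% of all genes were called, 0.204% lower and 0.0495% higher. No member passed FDR 0.05 alone, against 1.12% of all genes, 0.892% lower and 0.231% higher. At an unadjusted p under 0.05 there were 0 members and 13.5% of all genes. *Slc6a5* differed by 0.52 (SE 0.40) and *Glra1* by 0.44 (SE 0.47), and without WY1 by -0.09 (SE 0.16) and -0.22 (SE 0.27). *Gad1* was higher in WO without overlap, by 0.07 (SE 0.04), against 3.8% of all genes and 5.86% that were lower.

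Whether the age effect differed between genotypes was tested as (MO minus MY) minus (WO minus WY) over the 16 mice. All 9 estimates were below 0, and 5 members passed FDR 0.05, where 17.7% of all genes passed, 7.19% lower and 10.5% higher. They were *Slc32a1* at -0.51 (SE 0.11, FDR = 0.00488), *Slc6a11* at -0.58 (SE 0.11, FDR = 0.00240), *Slc6a9* at -0.43 (SE 0.12, FDR = 0.0186), *Glrb* at -0.44 (SE 0.12, FDR = 0.0206) and *Gphn* at -0.31 (SE 0.07, FDR = 0.0111). By limma, 0 members were called, as none of the 5 reached a fold change of 1.5 (*Slc6a11* was at 1.499), against 5.61% of all genes, 0.963% lower and 4.65% higher. At an unadjusted p under 0.05 there were 9 members, against 31.1%. *Slc6a5* at -1.37 (SE 0.46, FDR = 0.0516) and *Glra1* at -1.53 (SE 0.54, FDR = 0.0620) had the largest estimates and missed the FDR threshold. With the replicate number as a block, *Slc6a5* was called (FDR = 0.0414) and *Glra1* missed again (FDR = 0.0566). Without MO5, *Slc6a5* (-1.48, FDR = 0.0426), *Glra1* (-1.68, FDR = 0.0474) and *Slc6a11* (-0.61, FDR = 0.00215) were called, and *Gad1* passed FDR 0.05 (-0.20, FDR = 0.0191). Without WY1, *Slc6a5* was -0.75 (SE 0.22, FDR = 0.0404) and was called. *Glra1* at -0.87 (FDR = 0.113), *Slc6a9* at -0.41 (FDR = 0.0517) and *Glrb* at -0.37 (FDR = 0.0649) then did not pass. In the same fit *Slc32a1* at -0.38 (FDR = 0.00201), *Slc6a11* at -0.46 (FDR = 0.00298) and *Gphn* at -0.24 (FDR = 0.0260) passed. Without WY1 and MO5, *Slc6a5* was -0.86 (FDR = 0.00677) and *Glra1* -1.01 (FDR = 0.0401). After centring on pan-neuronal genes, *Slc32a1* (-0.24, FDR = 0.0520), *Slc6a9* (-0.16, FDR = 0.227), *Glrb* (-0.16, FDR = 0.209) and *Gphn* (-0.03, FDR = 0.711) no longer passed, while *Slc6a11* (-0.31, FDR = 0.0187), *Slc6a5* (-1.09, FDR = 0.0424) and *Glra1* (-1.26, FDR = 0.0467) did, where 57.7% of all genes passed, 1.03% lower and 56.6% higher.

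Other genes of GABA and glycine handling were taken from a list of 28, all measured. In MY vs. MO, 11 fell and none rose at FDR 0.05, with a median of -0.11. Then 9 fell and 2 rose in WO vs. MO, with a median of -0.07. The shares of all genes were 12.5% lower and 13.1% higher in MY vs. MO, and 12.9% lower and 15% higher in WO vs. MO. *Gabbr2*, a subunit of the metabotropic GABA-B receptor, was called in MY vs. MO and fell by 0.60 (FDR = 0.000317). Its decrease in WO vs. MO was -0.42 (FDR = 0.00268), and its interaction was -0.88 (FDR = 0.0167). Without WY1 that interaction was -0.58 (FDR = 0.00801), below the fold change threshold. *Slc12a5*, the chloride exporter KCC2 that sets the inhibitory direction of these currents, and *Slc12a2*, a chloride importer that works against it, were singled out after their values were seen. *Slc12a5* fell by 0.38 (FDR = 0.00632) and 0.45 (FDR = 0.000377), and *Slc12a2* by 0.51 (FDR = 0.0148) and 0.39 (FDR = 0.00887). Glutamine synthetase, *Glul*, was the most abundant gene of the list at a mean of 9.49, and differed by 0.04 in each comparison.

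Of the 17 GABA-A receptor subunit genes 16 were measured. In MY vs. MO 6 fell and 1 rose, and in WO vs. MO 4 fell and none rose, with medians of -0.17 and -0.09. Of all genes 12.5% and 12.9% were lower at FDR 0.05, and 13.1% and 15% higher. *Gabra3* was the most abundant at 5.38. *Gabra2*, an alpha subunit, had another pattern: 4.13, 4.48 and 4.39 in WY, 5.64, 5.60 and 5.48 in MY, 5.14, 5.37, 5.15, 5.42 and 5.14 in WO, and 5.28, 5.39, 5.23, 5.21 and 4.69 in MO. The WY mice were below all others. *Gabra2* rose by 0.91 in WY vs. WO (FDR = 0.0115), its difference in WY vs. MY was 1.24 (FDR = 0.0623, and 1.14 with FDR = 0.0139 without WY1), and its interaction was -1.32 (FDR = 0.000267).

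Markers of inhibitory interneuron classes were read next. Of 17 such genes, 3 fell in MY vs. MO (median -0.05) and 6 in WO vs. MO (median -0.13), and none rose, where 12.5% and 12.9% of all genes were lower, so the first count is close to that of all genes. *Pax2*, a transcription factor of inhibitory neurons, fell by 0.24 (FDR = 0.0241) and 0.30 (FDR = 0.00957), and *Nos1* fell by 0.46 in each (FDR = 0.000513 and 4.4e-05). *Pvalb*, *Calb1*, *Lbx1*, *Pax8* and *Tal1* did not pass in either. These genes other than *Nos1* were singled out after their values were seen. *Calb2* was the most abundant at 7.22. Of 7 excitatory transmitter genes, 3 fell in MY vs. MO, and in WO vs. MO 4 fell and 1 rose. *Slc17a6* was the most abundant at 5.84 and fell by 0.29 (FDR = 0.00591) and 0.21 (FDR = 0.0135).

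**Figure D3:**
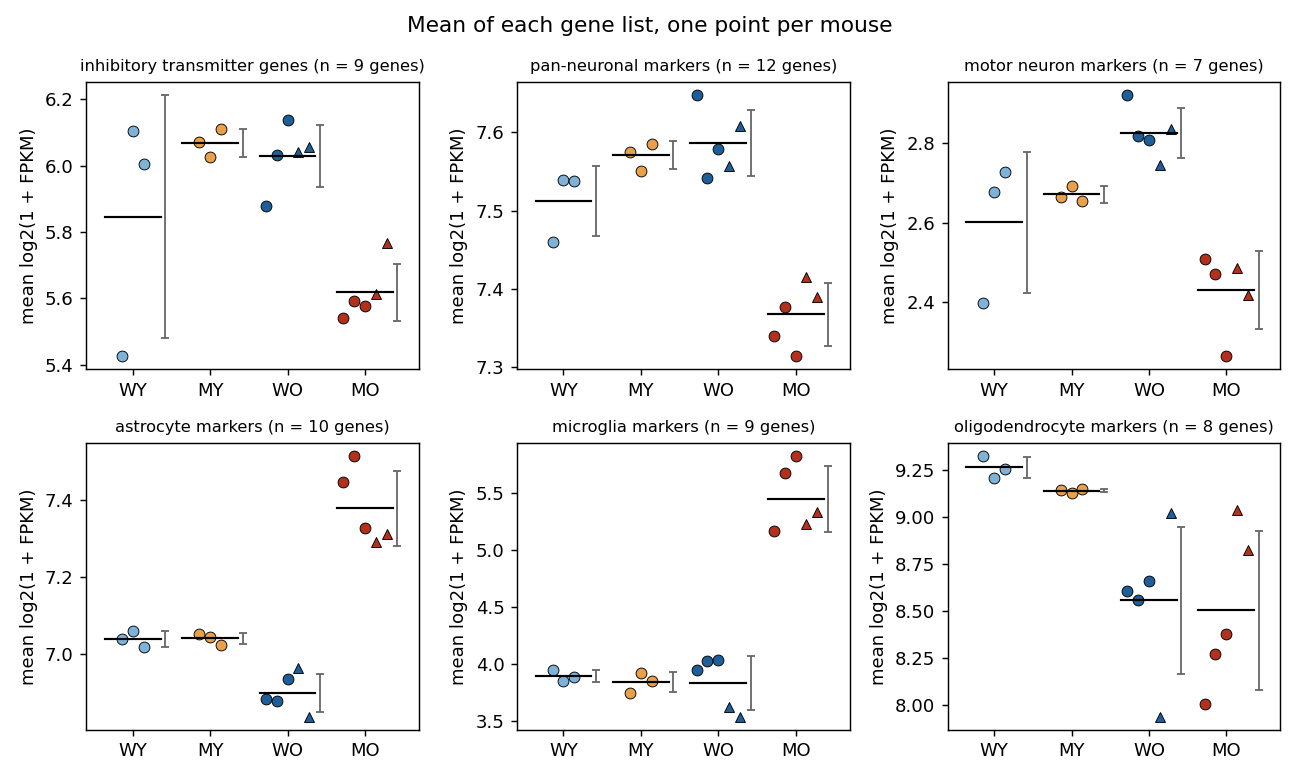
Mean log2(1 + FPKM) over the members and over 5 marker lists in every mouse, with circles for batch 1, triangles for batch 2, lines for group means and grey bars for 1 SD on each side. MO lay at 5.54 to 5.77 for the members, and at 5.16 to 5.82 for microglia markers, which no mouse of another group had above 4.04. For the members WY1, at 5.43, lay below every MO mouse.

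Markers of other cells moved in the same mice. The summed FPKM of the 12 pan-neuronal genes was 3551, 3766, 3481, 3778 and 3548 in MO1 to MO5 and 3961 to 4667 in the other 11 mice, with *Snap25* the most abundant. That of the 7 motor neuron genes was 57.7, 57.7, 46.4, 56.9 and 53.0 in MO1 to MO5, 86.5, 76.9, 78.8, 74.5 and 77.8 in WO1 to WO5, 69.4, 72.4 and 67.1 in MY1 to MY3, and 48.6, 68.4 and 70.4 in WY1 to WY3. WY1 was thus low in motor neuron markers as well. Of the 7, 5 fell in each comparison, and *Chat* fell by 0.41 in MY vs. MO (FDR = 0.00530) and by 0.67 in WO vs. MO (FDR = 3.13e-05), where it was called. The most abundant was *Slc5a7*, a choline transporter.

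Many markers of microglia and astrocytes moved the other way, those of oligodendrocytes did not. The summed FPKM of the 9 microglia genes was 639, 943, 1158, 597 and 670 in MO1 to MO5 and 122 to 201 in the other mice, with *C1qa* the most abundant, and 8 of the 9 rose in each comparison. *Cd68* rose by 3.24 in MY vs. MO and 3.22 in WO vs. MO, and *C1qa* by 2.88 and 2.82. That of the 10 astrocyte genes was 4175, 5075, 4566, 4173 and 4176 in MO1 to MO5 and 2587 to 3320 in the other mice. *Gfap*, the most abundant, rose by 1.26 and 1.60 and *Aldh1l1* by 0.62 and 0.69, so *Slc6a11* and *Slc6a9* fell in tissue in which 5 and 7 of the 10 astrocyte markers rose and none fell. Among the 8 oligodendrocyte genes, 4 fell in MY vs. MO and 2 in WO vs. MO. Their summed FPKM was 6982, 7516 and 7661 in MO1 to MO3 and 22062 and 21392 in MO4 and MO5, 10157, 9424 and 9451 in WO1 to WO3, 5189 and 23837 in WO4 and WO5, and 13895 to 16319 in the young mice. These sums followed *Mbp*, the most abundant, which was low in WO4 and highest in the other mice of batch 2 (14.1 to 14.2). Without *Mbp* the other 7 genes summed to 2411, 2931, 2823, 4338 and 3332 in MO1 to MO5, 3907, 3688, 3971, 5149 and 4768 in WO1 to WO5, and 6071 to 6687 in the young mice, still higher in batch 2 than in batch 1 of the same group. No gene of these 5 lists had a mean level under 0.5. The part of these shifts in the results for the members was not tested.

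The genes whose levels ran most closely with a member over the 16 mice were taken among 13529 others, as a description. For *Slc6a5* they were *Sv2c* (Pearson's r = 0.983), *Syt2* (0.977) and *Sorl1* (0.972). For *Glra1* they were *Ppm1l* (0.985), *Sv2c* (0.984) and *Aff2* (0.981). WY1 was the lowest mouse for each of these, and without WY1 the r of *Sv2c* was 0.971 with *Slc6a5* and 0.973 with *Glra1*. For *Slc32a1* they were *Magee1* (0.984) and *Ywhag* (0.971), for *Slc6a11* *Nos1* (0.984), *Scn4b* (0.983) and *Snrk* (0.978), and for *Gad2* *Myo5a* (0.975), *Mib1* (0.973) and *Ppargc1a* (0.970). Among the members, *Slc6a5* and *Glra1* had an r of 0.971 (0.953 without WY1) and *Slc32a1* and *Slc6a11* one of 0.933, while *Gad1* stayed at or below 0.649 with every other member (0.774 without WY1). The groups differ for most of these genes, so these r values reflect group means as well as single mice.

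The members lie apart in the genome. In the GENCODE annotation of GRCm38, the build also called mm10, *Gad1* spans chr2:70553072-70602014, *Gad2* chr2:22622205-22693874 and *Slc32a1* chr2:158610767-158615748, all on the plus strand. *Slc6a5* spans chr7:49910146-49963856, *Slc6a11* chr6:114131241-114249952, *Slc6a9* chr4:117834506-117875198 and *Gphn* chr12:78226379-78684772, also on the plus strand. *Glra1* spans chr11:55514238-55608198 and *Glrb* chr3:80843599-80913660 on the minus strand. All are protein coding. The longest annotated transcripts ran from 2390 bases for *Glra1* and 2797 for *Slc32a1* to 7065 for *Slc6a5*. Which transcripts were expressed was not determined.

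Promoter windows of 300 bases, 250 before and 50 after a transcript start, were available from RefSeq (GRCm38.p6) for 8 of the 9 members, with 11 windows. Those of *Slc32a1*, *Slc6a5* and *Slc6a11* are printed as 3 examples of the 6 genes with a window that fell in both comparisons, and that of *Gad1* because it did not pass in either. For *Slc6a5* the first of its 2 windows is given. They are at chr2:158610508-158610807, chr7:49910049-49910348, chr6:114130991-114131290 and chr2:70561879-70562178, on the plus strand and written 5′ to 3′. The transcript start of the *Gad1* window lies 9057 bases inside the annotated gene. Capitals mark the E-box, CANNTG, which reads the same on both strands.
Slc32a1: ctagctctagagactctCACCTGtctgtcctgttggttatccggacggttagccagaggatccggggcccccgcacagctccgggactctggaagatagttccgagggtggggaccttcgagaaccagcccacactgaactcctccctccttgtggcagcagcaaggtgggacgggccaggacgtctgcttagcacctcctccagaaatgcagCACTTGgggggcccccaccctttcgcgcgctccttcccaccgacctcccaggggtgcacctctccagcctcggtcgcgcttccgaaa
Slc6a5: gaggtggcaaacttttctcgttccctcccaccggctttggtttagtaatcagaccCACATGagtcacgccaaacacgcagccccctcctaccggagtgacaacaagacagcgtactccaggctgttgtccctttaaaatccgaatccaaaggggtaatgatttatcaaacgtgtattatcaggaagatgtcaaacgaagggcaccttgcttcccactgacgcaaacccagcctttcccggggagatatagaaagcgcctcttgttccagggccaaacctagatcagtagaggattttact
Slc6a11: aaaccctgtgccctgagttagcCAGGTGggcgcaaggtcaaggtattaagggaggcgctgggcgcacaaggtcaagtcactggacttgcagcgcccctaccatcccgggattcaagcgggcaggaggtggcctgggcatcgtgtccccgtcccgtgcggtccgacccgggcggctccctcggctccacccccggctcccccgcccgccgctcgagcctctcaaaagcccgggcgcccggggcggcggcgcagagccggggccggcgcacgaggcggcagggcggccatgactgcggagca
Gad1: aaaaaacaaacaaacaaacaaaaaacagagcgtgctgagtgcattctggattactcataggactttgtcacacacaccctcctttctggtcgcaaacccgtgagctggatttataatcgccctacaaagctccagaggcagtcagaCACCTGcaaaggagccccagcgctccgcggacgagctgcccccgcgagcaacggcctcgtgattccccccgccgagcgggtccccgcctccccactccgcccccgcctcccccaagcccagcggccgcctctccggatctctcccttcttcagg
The E-box was found 2 times in the *Slc32a1* window and 1 time in each of the other printed windows. Among those not printed it was found 4, 0 and 0 times in the windows of *Slc6a9*, 2 times in the second of *Slc6a5*, 1 time for *Gad2* and *Glrb* each and 0 times for *Gphn*. It was present in 72.3% of the 32851 promoter windows of the RefSeq table, with a median of 1 match, so its presence does not set these genes apart. The cAMP response element TGACGTCA, found in 1.79% of all windows, was in none of the 11, and the letters TATAAA, found in 13.6% on either strand, were in the *Gad1* window alone. These matches describe the letters only.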

How the data were processed

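Spinal cord RNA of 16 mice was sequenced. The deposited values are log2(1 + FPKM) per gene, made by the authors. Per their methods and the submitters' processing notes, Trimmomatic trimmed the reads, TopHat aligned them (mm10) and Cufflinks gave FPKM, which were adjusted for library batch with parametric ComBat. Tool versions and the gene annotation were not given in the sources used here. The table held 18167 genes, and 915 values were below 0 after the adjustment. It held no read counts, so depth per gene is unknown, although the authors state library sizes.

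Groups came from the labels, and the age and library batch of each mouse are those the authors state. Each comparison was fitted with limma 3.58.1 (R 4.3.3) on all genes in its own 2 groups, second minus first, with Benjamini-Hochberg adjustment over 18167 genes. The interaction was fitted over all 16 mice. Within-mouse differences were tested by 2-sided exact permutation (SciPy 1.17.1). Tested on simulated normal values for each comparison, the limma step recovered 100% of 200 genes changed by 1 on the log2 scale. These genes were drawn from those with a spread below the median. Recovery of smaller changes or of more variable genes was not tested. The named genes were all members and, from each other list, up to 4 called genes and the most abundant gene. Others, such as *Slc12a5*, *Slc12a2*, *Pax2*, *Pvalb* and *S100b*, were singled out after their values were seen. For 5 members, up to 3 genes with the highest Pearson's r were named. The alternatives were a filter at a mean of 1, batch 1 only, batch as a term, quantile normalization, 1 fit of all 4 groups, limma's intensity trend, a pseudocount of 0.1, centring on pan-neuronal genes, the replicate number as a block and leaving out each mouse. Removing the trend over transcript length (lowess, span 0.3) and leaving out WY1 and MO5, with or without WO1, were chosen after seeing the data. The members and lists were chosen with earlier results of these data known.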

Additional observations from a re-analysis of the deposited data

Results flagged for a closer look

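In groups of 5 mice, 2 of 18 gene and group pairs held a mouse whose gap to the next was over 0.71 of the range of its group, which chance alone gives in a share of about 0.05 of such groups. *Glra1* was 5.15 in MO5, where the other MO mice lay between 4.37 and 4.53. *Gphn* was 4.99 in WO3, where the other WO mice lay between 4.90 and 4.91. MO5 is also the library with the *Xist* level of 3.21.

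The age effect differed between the mutant and the wild-type strain, by the limma interaction over 16 mice, for *Slc32a1* (-0.51), *Slc6a11* (-0.58), *Slc6a9* (-0.43), *Glrb* (-0.44) and *Gphn* (-0.31). In each of these genes MO was the low group. WY1 enters these values, and without it *Slc6a9* and *Glrb* did not pass (FDR = 0.0517 and 0.0649). Their estimates were then -0.41 and -0.37. After centring on pan-neuronal genes, *Slc6a11* alone of these 5 passed (-0.31, FDR = 0.0187).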

How the results depend on the processing

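Of the estimates for single members under alternatives, 159 of 171 in MY vs. MO and 176 of 198 in WO vs. MO kept their direction and their side of FDR 0.05, and 1 and 3 turned direction. These tallies count some fits more than once, because settings that differ only in a mouse outside the comparison are the same fit. The cause of the moves was not tested.

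Members called numbered 2 in MY vs. MO and became 1 with all 4 groups in 1 fit, where 890 of all genes became 897. In WO vs. MO 2 became 1 in batch 1 alone, 1 with all 4 groups in 1 fit and 0 after centring on pan-neuronal genes. Of all genes, 836 became 873, 838 and 1408 in that order. At FDR 0.05 alone, centring gave 4 in each and 3 for the interaction, all lower, where 61.8%, 66.6% and 57.7% of all genes passed, and 2.9%, 2.08% and 1.03% as lower. For the interaction, 0 called became 2 with the filter at a mean of 1, 1 in batch 1, 2 with quantile normalization, 1 with the intensity trend, 1 with the pseudocount of 0.1 and 2 after centring. Of all genes, 1020 became 883 of 13530, 952, 992, 1026, 1548 and 2226 in that order. Among alternatives chosen after seeing the data, the number of members called became 1 with the length trend removed, 2 without WY1 and MO5, and 2 without WY1, WO1 and MO5. Of all genes, 763 of 13017, 824 and 838 were called there.

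Leaving out each mouse gave 1 to 2 called in WO vs. MO, 0 to 4 called for the interaction and 4 to 8 of its members at FDR 0.05. Of all 18167 genes, 786 to 924 were called in these fits of WO vs. MO. For the interaction 808 (without WY1) to 1292 (without WY2) of all genes were called. At FDR 0.05 alone 2227 (without MY1) to 3939 (without WY2) passed. Estimates in WY vs. WO ran from -0.0413 to 0.26 for *Gad2*, -0.0930 to 0.87 for *Slc6a5* and -0.22 to 0.84 for *Glra1*. Those in WY vs. MY ran from -0.0530 to 0.16 for *Slc32a1*, -0.0267 to 0.93 for *Slc6a5*, -0.0418 to 0.17 for *Slc6a11* and -0.0075 to 0.13 for *Glrb*. The lowest was in each case the fit without WY1.

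Centring turned *Gad1* to 0.10 in MY vs. MO, 0.12 in WO vs. MO, -0.0067 in WY vs. WO and 0.10 in the interaction, and *Gad2* to 0.0836 and *Gphn* to 0.0440 in WO vs. MO. Without WY1 and MO5, WY vs. WO gave -0.0413 for *Gad2*, -0.0930 for *Slc6a5* and -0.22 for *Glra1*, and WY vs. MY gave -0.0530 for *Slc32a1*, -0.0267 for *Slc6a5*, -0.0418 for *Slc6a11* and -0.0075 for *Glrb*. With WO1 left out too, WY vs. WO gave -0.0050 for *Gad2* and -0.0550 for *Glra1*, and WY vs. MY was the same fit.

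With the replicate number as a block, 2 members were called in MY vs. MO, 1 in WO vs. MO, 1 for the interaction and 0 in the other comparisons, and at FDR 0.05 alone 6, 6, 6, 0 and 0. Of all genes 6.1%, 4.62%, 5.55%, 0.347% and 0.0055% were then called, and 20.6%, 22.7%, 15.8%, 0.374% and 0.0055% passed the FDR, in the order MY vs. MO, WO vs. MO, interaction, WY vs. WO and WY vs. MY. In MY vs. MO and WY vs. WO the blocked estimates of the members equal those of batch 1 alone. The mice share only a number: 6 of 6 mice correlated best with their own number in MY vs. MO, 2 of 10 in WO vs. MO, 4 of 6 in WY vs. WO and 0 of 6 in WY vs. MY.

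Over all genes, MY vs. MO called 890 genes (747 higher), 1419 (1362 higher) after centring and 1483 with the pseudocount of 0.1. WO vs. MO called 836, 1408 and 1529. The interaction called 1020 (845 higher), 2226 (2198 higher) after centring, 992 (715 higher) with quantile normalization and 1548 with the pseudocount. WY vs. WO called 46 (9 higher), 70 (6 higher) after centring, and 7 (without WY3) to 64 (without WO4) when each mouse was left out, with 23 without WY1. With no read counts, the precision of each gene's value is unknown, and 3 to 5 mice a group limit every comparison.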
